A study of Homo sapiens with 6 samples.

Results

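ZEB1 and the other transcription factors that induce the epithelial-mesenchymal transition (EMT) were examined in SW480, a human colorectal adenocarcinoma cell line, 48 h after transfection with siRNA. The members were chosen by name: ZEB1, ZEB2, SNAI1, SNAI2, SNAI3, TWIST1, TWIST2, PRRX1, FOXC2 and TCF4, together with ZEB1-AS1, the antisense RNA that starts beside ZEB1. Of these 11 names, 9 had a row among the 32029 genes listed, 8 of them factors. TWIST1 and TWIST2 had no row and were not analysed here. The 3 siNC cultures carried wild-type SW480 cells with the control siRNA, and the 3 siZEB1 cultures, whose genotype is given as ZEB1 knockdown, received an siRNA against ZEB1. Every comparison rests on this single line and this single siRNA condition, and the sequence of the siRNA is not given in the sources used here. Total RNA was sequenced, and the number of reads per gene summed to between 19040636 and 22357633 per culture.

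EMT is the process in which epithelial cells lose their junctions and polarity and gain a migratory, mesenchymal form. ZEB and SNAI proteins are zinc-finger repressors that bind E-box motifs in the promoters of junction genes such as CDH1 (E-cadherin), and they recruit corepressors that silence them. TWIST1, TWIST2 and TCF4 are basic helix-loop-helix factors, PRRX1 is a homeobox factor and FOXC2 a forkhead factor. The microRNAs of the miR-200 family target ZEB1 and ZEB2, which in turn repress the miR-200 genes, a double-negative loop that is well known in carcinoma cells.

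ZEB1 was the member that fell and ZEB1-AS1 was the member that rose, while SNAI1 kept its level within a narrow interval. Per length of all annotated exons, SNAI1 was the most abundant factor in each culture, a rank that in siNC may depend on the length used. The remaining factors had few reads: SNAI2 and SNAI3 between 5 and 22 in a culture, PRRX1 and FOXC2 at most 9, TCF4 at most 3 and ZEB2 at most 1. The plot of reads in each culture shows these levels side by side. With edgeR's quasi-likelihood test and an adjusted p under 0.05, 40.2% of the 14996 genes tested were called, 19% higher and 21.2% lower. Of the 9 members with a row, 5 passed the filter on low counts (ZEB1, SNAI1, SNAI2, SNAI3 and ZEB1-AS1), and of those 1 was called lower and 1 higher. ZEB2, PRRX1, FOXC2 and TCF4 stayed below the filter and received no call.

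**Figure D1:**
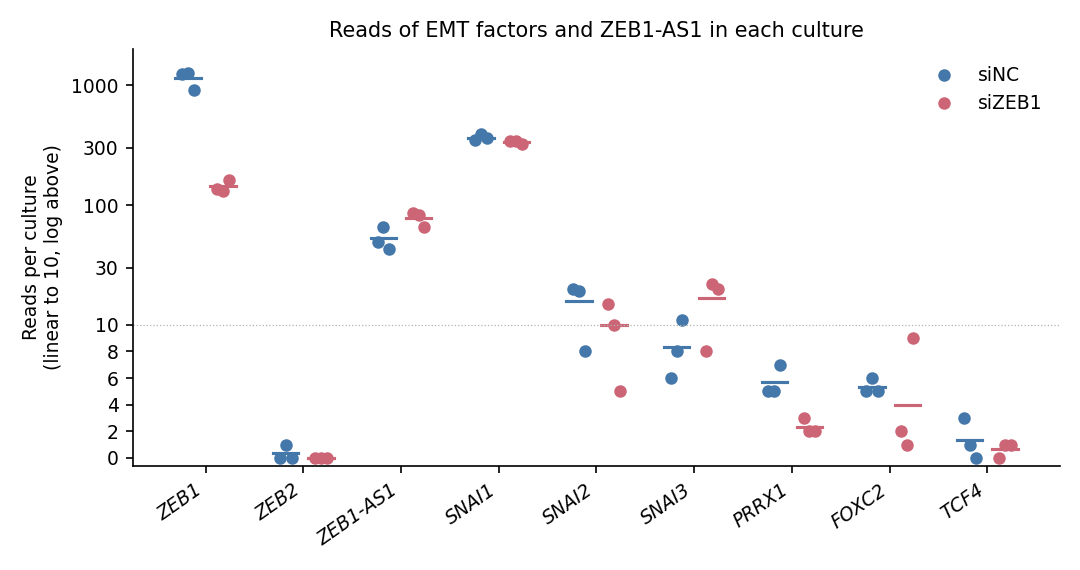
Reads of each member in each culture (vertical axis, number of reads, linear to 10 and logarithmic above), with 1 point per culture and a bar at the mean of the 3 siNC (blue) or 3 siZEB1 (red) cultures. ZEB1 lies between 908 and 1276 reads in siNC and between 132 and 162 in siZEB1, SNAI1 lies between 324 and 390 in all 6 cultures, and ZEB2, TCF4, PRRX1 and FOXC2 stay below 10 reads.

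ZEB1 (ENSG00000148516) is a protein-coding gene on the plus strand of chromosome 10, from 31318495 to 31529814 in GENCODE 29 on GRCh38. It had 1247, 1276 and 908 reads with siNC, against 136, 132 and 162 reads with siZEB1. The lowest siNC culture lay far above the highest siZEB1 culture. In CPM, read counts scaled to a common library size, its level went from 54.2 ± 6.24 (SD, n = 3) to 7.51 ± 0.843 (SD, n = 3). The log2 fold change was -2.85 with a standard error (SE) of 0.11 and a 95% confidence interval from -3.08 to -2.62, and edgeR gave an adjusted p = 4.85e-12. This is a 7.22-fold lower level, and only 4 of the genes tested had a lower log2 fold change. By level, ZEB1 moved from percentile 71.5 to percentile 37.1 of the genes tested. It is the gene the siRNA targets, so the fall is a check of the labels, and between 132 and 162 reads remained in each siZEB1 culture. In RNA from a whole culture, fewer cells with ZEB1 and less ZEB1 per cell cannot be told apart.

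ZEB2, the paralog of ZEB1 on chromosome 2, had 0, 1 and 0 reads in the siNC cultures and 0, 0 and 0 in the siZEB1 cultures. It therefore made up 0.0783% of the ZEB1 and ZEB2 reads in 1 siNC culture, with an exact binomial 95% interval from 0.00198% to 0.435%, and 0 in the other siNC cultures, where the exact upper limits were 0.295% and 0.405%. In the siZEB1 cultures, with 0 ZEB2 reads beside 132 to 162 of ZEB1, the exact upper limits were 2.25% to 2.76%. These limits cover counting error only. With 1 read in all, a test of the share says nothing: the exact permutation test gave p = 1, and 3 against 3 cultures cannot give a p under 0.1. ZEB2 was at or under 1 read in each culture, and a change of ZEB2 was not detectable at this depth.

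ZEB1-AS1 (ENSG00000237036) is transcribed from the minus strand of chromosome 10, from 31206278 to 31320447, so that its start lies inside the 5′ part of ZEB1. It had 49, 66 and 43 reads with siNC, against 86, 82 and 65 reads with siZEB1. The groups came close, at 66 and 65 reads, but did not overlap after library-size scaling, with a highest siNC level of 2.95 CPM and a lowest siZEB1 level of 3.40 CPM. Its level went from 2.49 ± 0.394 to 4.07 ± 0.603 CPM (SD, n = 3), which is 0.70 on the log2 scale (SE 0.19, 95% interval 0.31 to 1.09, edgeR adjusted p = 0.00628). Groups that do not overlap were found for 49.5% of the genes tested. In RPKM, which is CPM per kilobase of exon, there were 9.73 ± 1.39 ZEB1 for each ZEB1-AS1 in siNC and 0.839 ± 0.229 in siZEB1 (SD, n = 3). Exons of ZEB1 cover 9.55% of the exonic bases of ZEB1-AS1, and exons of ZEB1-AS1 cover 4.23% of those of ZEB1. Whether the counting used the strand is not given in the sources used here, so reads in that overlap cannot be assigned to either gene with certainty.

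The start regions of ZEB1 and ZEB1-AS1 are shown because they share their E-boxes. RefSeq windows of 300 bases on GRCh38.p14, from 250 bases before a start to 50 after it, were searched for CACCTG on both strands, that is for CACCTG or CAGGTG as printed. Capitals mark these motifs. ZEB1 has 7 annotated windows, of which 1 holds 3 motifs, 1 holds 1 and the other 5 hold none. ZEB1-AS1 has 2 windows, of which 1 holds 2 motifs and the other none. The windows with the most motifs lie at chr10:31318966-31319265 (plus strand, ZEB1) and chr10:31319046-31319345 (minus strand, ZEB1-AS1).
ZEB1: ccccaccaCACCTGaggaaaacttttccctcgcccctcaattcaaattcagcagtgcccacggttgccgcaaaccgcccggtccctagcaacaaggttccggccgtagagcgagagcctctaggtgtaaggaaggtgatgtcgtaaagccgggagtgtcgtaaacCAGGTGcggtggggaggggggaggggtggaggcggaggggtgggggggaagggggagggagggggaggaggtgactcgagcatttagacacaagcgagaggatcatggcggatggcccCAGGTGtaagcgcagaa
ZEB1-AS1: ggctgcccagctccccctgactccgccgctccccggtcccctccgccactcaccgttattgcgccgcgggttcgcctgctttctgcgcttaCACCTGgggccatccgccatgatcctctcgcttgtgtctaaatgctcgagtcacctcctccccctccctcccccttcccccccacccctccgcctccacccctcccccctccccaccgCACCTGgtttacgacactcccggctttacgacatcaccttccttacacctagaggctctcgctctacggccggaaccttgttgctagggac
The motifs start at positions -242, -85 and 34 from the ZEB1 start and at -159 and -41 from the ZEB1-AS1 start, and the windows overlap, so the pair in the ZEB1-AS1 window are also motifs of the ZEB1 window read on the other strand. Over all 35116 windows in the table, 20.6% hold at least 1 such motif and 0.635% hold 3 or more. A motif is a description of the letters and not evidence of binding.

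SNAI1 (ENSG00000124216, chromosome 20 from 49982999 to 49988886) encodes Snail, an E-box repressor of CDH1. It had 346, 390 and 361 reads in the siNC cultures and 341, 344 and 324 in the siZEB1 cultures, and the groups overlapped. Its level was 17.5 ± 1.23 CPM in siNC and 17.6 ± 0.611 CPM in siZEB1 (SD, n = 3). The log2 fold change was 0.014 (SE 0.090, edgeR adjusted p = 0.918), and its 95% interval of -0.18 to 0.20 bounds the ratio between 0.885 and 1.15. A pseudogene copy, SNAI1P1, is annotated in GENCODE 29 but had no row here, and how reads shared with it were counted is not given in the sources used here.

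Per length, SNAI1 stood above ZEB1 before the knockdown and far above it afterwards. In siNC, SNAI1 had 10.4 ± 0.729 RPKM and ZEB1 6.27 ± 0.721 RPKM (SD, n = 3), and the groups of values did not overlap. The ratio of SNAI1 to ZEB1 was 1.42, 1.57 and 2.04 in the siNC cultures and 12.9, 13.4 and 10.3 in the siZEB1 cultures. In raw reads the order was the other way in siNC, where ZEB1 had 2.51 to 3.60 reads for each SNAI1 read, since ZEB1 has 8650 exonic bases and SNAI1 1686. These lengths merge all annotated exons of a gene, so the RPKM of a gene with many isoforms is understated. The order of SNAI1 and ZEB1 in siNC may therefore depend on the length used.

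**Figure D2:**
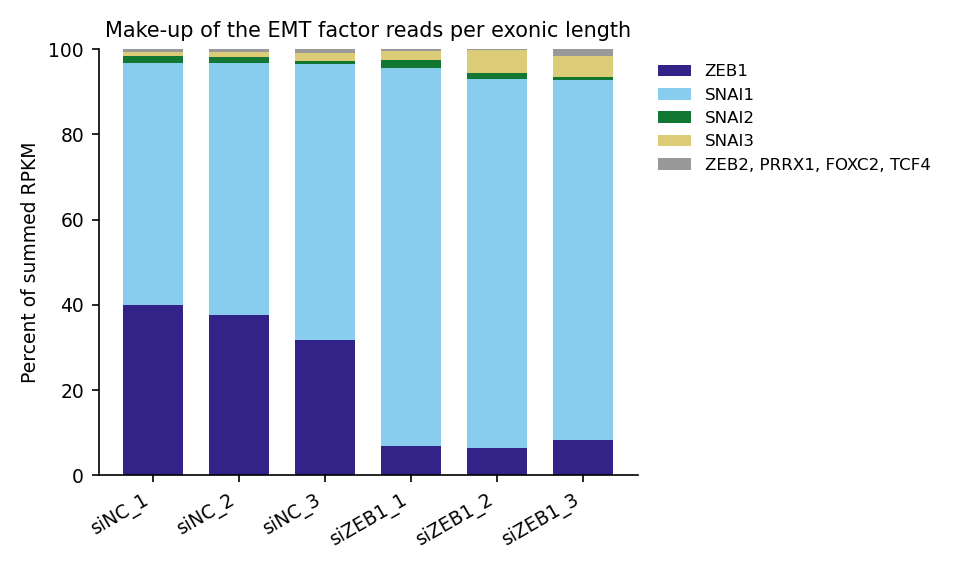
Share of the summed RPKM of the 8 factors taken by each (vertical axis, percent) in each of the 6 cultures, with lengths that merge all annotated exons. ZEB1 takes 31.8% to 39.9% in the siNC cultures and 6.48% to 8.24% in the siZEB1 cultures, and SNAI1 takes 56.8% to 64.8% and 84.5% to 88.7%.

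ZEB1 and SNAI1 together held nearly all of the RPKM of the 8 factors. ZEB1 held 39.9%, 37.7% and 31.8% in the siNC cultures and 6.89%, 6.48% and 8.24% in the siZEB1 cultures. SNAI1 held 56.8%, 59.0% and 64.8% in the siNC cultures and 88.7%, 86.6% and 84.5% in the siZEB1 cultures. The shares add up to a fixed whole, so the rise in the share of SNAI1 follows from the fall of ZEB1 and is not a change in the level of SNAI1. The plot of shares shows that SNAI3 had the next largest share in the siZEB1_2 and siZEB1_3 cultures, at 5.39% and 5.08%.

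SNAI2 (ENSG00000019549, chromosome 8) encodes Slug, a close relative of Snail. It had 20, 19 and 8 reads in the siNC cultures and 15, 10 and 5 in the siZEB1 cultures, and the groups overlapped. The log2 fold change was -0.50 (SE 0.44, edgeR adjusted p = 0.393), with a 95% interval from -1.42 to 0.43. That interval holds both a fall by more than 1 on the log2 scale and no change, so a difference in SNAI2 was not detectable at this depth.

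SNAI3 (ENSG00000185669, chromosome 16 from 88677682 to 88686493), another SNAI gene, had 6, 8 and 11 reads in the siNC cultures and 8, 22 and 20 in the siZEB1 cultures. The siZEB1_2 and siZEB1_3 cultures were above each siNC culture, and siZEB1_1 was among them. The log2 fold change of 1.12 (SE 0.44, 95% interval 0.19 to 2.05) had an unadjusted p of 0.0216 and, in edgeR, an adjusted p = 0.0531, just outside the threshold. It passed in 3 of 11 alternatives: with no filter on low counts, at 1.11 (edgeR adjusted p = 0.0469), without siNC_3, at 1.43 (edgeR adjusted p = 0.0283), and without siZEB1_1, at 1.45 (edgeR adjusted p = 0.0172). Its antisense neighbour SNAI3-AS1, whose exons cover 9.41% of the exonic bases of SNAI3, had 26, 49 and 38 reads in siNC and 24, 24 and 24 in siZEB1. SNAI3-AS1 had a log2 fold change of -0.51 (SE 0.27, edgeR adjusted p = 0.147), and passed the test only without siNC_1, at -0.73 (edgeR adjusted p = 0.0416).

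**Figure D3:**
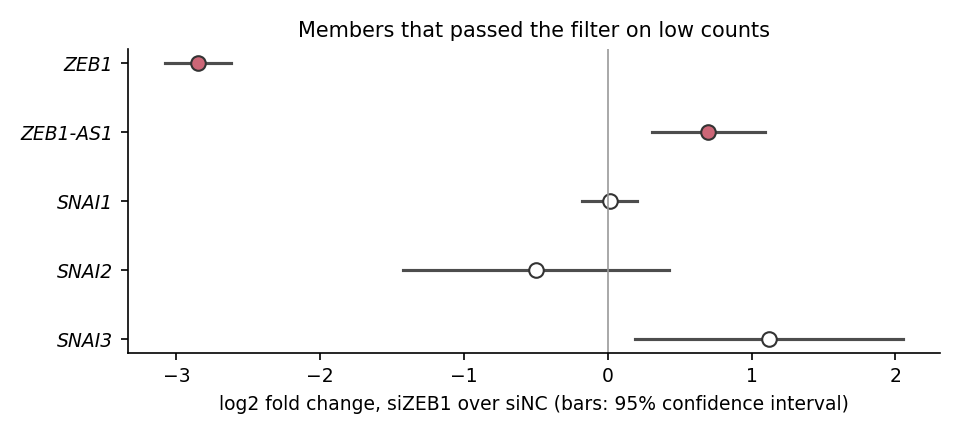
Log2 fold change of siZEB1 over siNC (horizontal axis) for the 5 members that passed the filter, with bars for the 95% confidence interval and filled points for an adjusted p under 0.05. ZEB1 lies at -2.85 and ZEB1-AS1 at 0.70, while the intervals of SNAI1 and SNAI2 include 0 and that of SNAI3 runs from 0.19 to 2.05.

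PRRX1, a homeobox factor of mesenchyme on chromosome 1, had 5, 5 and 7 reads in the siNC cultures and 3, 2 and 2 in the siZEB1 cultures. The groups did not overlap, as in 49.5% of the genes tested. The summed level of PRRX1 in siZEB1 was 0.453 of that in siNC, with a counting interval from 0.159 to 1.15. FOXC2, on chromosome 16, had 5, 6 and 5 reads in siNC and 2, 1 and 9 in siZEB1, with the highest and the lowest count in the same group. Its summed level in siZEB1 was 0.825 of that in siNC (0.356 to 1.86). FOXC2-AS1, which shares 45.5% of its exonic bases with FOXC2, had 1, 2 and 1 reads in siNC and 1, 0 and 0 in siZEB1. TCF4, a basic helix-loop-helix factor on chromosome 18, had 3, 1 and 0 reads in siNC and 0, 1 and 1 in siZEB1, a ratio of 0.550 with an interval from 0.0497 to 3.84. The intervals of PRRX1, FOXC2 and TCF4 each include 1, so none of these differences was detectable at this depth. Differences of this size in so few reads were not testable with the filter applied, and in edgeR with no filter the adjusted p was 0.434 for PRRX1, 0.841 for FOXC2, 0.792 for TCF4 and 0.603 for ZEB2.

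In the order of RPKM, the siNC cultures held SNAI1 at the top, followed by ZEB1 and then by ZEB1-AS1 at 0.651 ± 0.103 RPKM (SD, n = 3). SNAI3 at 0.233 ± 0.0864 and SNAI2 at 0.217 ± 0.0827 RPKM overlapped and could not be ordered. FOXC2 at 0.0876 ± 0.00586 RPKM lay below them and above PRRX1 at 0.0332 ± 0.0094, and TCF4 and ZEB2 were at the bottom and overlapped. FOXC2 had 5 to 6 reads in siNC and PRRX1 5 to 7. Their order therefore rests on exonic length, 2900 against 8246 bases, and is uncertain. In the siZEB1 cultures SNAI1 stayed at the top, and ZEB1-AS1 at 1.06 ± 0.157 RPKM overlapped with ZEB1 at 0.868 ± 0.0974. SNAI3 at 0.503 ± 0.225 RPKM lay above SNAI2 at 0.155 ± 0.0786 without overlap, but by a narrow margin. In siZEB1_1, the lowest SNAI3 value was 0.245 RPKM (8 reads) and the highest SNAI2 value 0.234 RPKM (15 reads). At so few reads their order is uncertain, and neither gene was called between siNC and siZEB1.

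ZEB1 and ZEB2 shared a feature of their messages that the choice of members did not use. The mature miR-200 microRNAs, taken from RefSeq on GRCh38.p14, are shown with the seed, bases 2 to 8, in capitals, because they fall into 2 seed groups that differ in 1 base.
hsa-miR-200b-3p: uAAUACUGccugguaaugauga
hsa-miR-200c-3p: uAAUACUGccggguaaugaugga
hsa-miR-429: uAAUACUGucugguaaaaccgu
hsa-miR-200a-3p: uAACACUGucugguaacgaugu
hsa-miR-141-3p: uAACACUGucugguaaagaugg
The first 3 pair with the 7-mer CAGTATT and the last 2 with CAGTGTT. In 1 GENCODE 29 transcript per gene, read on the sense strand, the 3′UTR of ZEB1 (2552 bases) holds 6 CAGTATT and 3 CAGTGTT, and that of ZEB2 (5373 bases) holds 5 and 4. Of 12347 3′UTRs of genes tested, 18.8% hold CAGTATT and 21.2% hold CAGTGTT at least once, 0.964% and 1.26% hold them 3 times or more, and 0.0243% and 0.0729% hold them 5 times or more. Of the other factors, TCF4 holds 1 and 2, SNAI2 holds 1 and 0, and SNAI1, SNAI3, PRRX1 and FOXC2 hold none. The sites of ZEB1 nearest to the stop codon for each seed group start at bases 372 and 785 of its 3′UTR, with the match in capitals.
ZEB1 base 372: ttgttttatcttatCAGTATTa
ZEB1 base 785: aaaatcatcagaatCAGTGTTt
The host transcript of miR-200c and miR-141, MIR200CHG, was named after its values were seen, with 0, 1 and 0 reads in siNC and 0, 0 and 0 in siZEB1. Mature microRNAs were not measured in these libraries, so nothing on their level follows from the host transcript.

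Among factors of EMT outside the member list, more were lower than higher after ZEB1 knockdown. Of 27 listed, 23 were tested, and edgeR called 12 of them lower (52.2%, against 21.2% of all genes tested) and 5 higher (21.7%, against 19%). Their median log2 fold change was -0.29, against -0.0055 over all genes tested. FOXC1, a paralog of FOXC2, fell by 0.77 on the log2 scale, from 37.5 ± 1.74 to 22.1 ± 0.912 CPM. RUNX1 fell from 46.2 ± 0.717 to 29.8 ± 1.14 CPM. TCF3, which encodes the E-box proteins E12 and E47 and belongs to the same class as TCF4, went the other way, from 122 ± 7.24 to 207 ± 5.27 CPM (log2 fold change 0.76, SE 0.062). All of these passed edgeR's quasi-likelihood test, with the largest adjusted p = 2.34e-06 for RUNX1. Their groups did not overlap, which was also found for 49.5% of all genes tested. ETS1, RUNX2, YBX1 and FOXM1 were among the 6 factors not called. The list is not limited to inducers of EMT and also holds ID1, ID2 and ID3. Of these, edgeR called ID1 and ID2 lower, at -0.49 and -0.55 on the log2 scale, and ID3 was not called.

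Epithelial factors that oppose EMT split into strong rises and strong falls. Of 23 listed, 14 were tested, and 5 were called higher (35.7%, against 19% of all genes tested) and 4 lower (28.6%, against 21.2%), around a median of 0.11 on the log2 scale. OVOL2, ESRP1 and ESRP2, called higher, are also on the list of targets repressed by ZEB or SNAI factors and are counted in both. With at least 10 counts in every culture, where fewer genes were tested, 3 were called higher. OVOL2, a zinc-finger repressor of ZEB1, had 9, 10 and 9 reads in siNC and 51, 71 and 54 in siZEB1, a log2 fold change of 2.77 (SE 0.28). ESRP1, which directs epithelial splicing, had 5, 6 and 6 reads in siNC and 50, 46 and 71 in siZEB1, a log2 fold change of 3.40 (SE 0.33). With 10 reads or fewer in each siNC culture, OVOL2 and ESRP1 entered the test through their siZEB1 reads. In contrast, CDX2, the homeobox factor of intestinal identity, had 2023, 2312 and 2106 reads in siNC and 760, 862 and 769 in siZEB1, a log2 fold change of -1.30 (SE 0.075). TFAP2A, an AP-2 factor of surface ectoderm, fell from 3.42 ± 0.582 to 1.43 ± 0.382 CPM. Adjusted p-values of these 4 genes from edgeR's quasi-likelihood test were between 8.28e-10 and 0.0003. CDX2 is also a marker of the colorectal epithelium, and the levels of other markers on that list differed in both directions. From siNC to siZEB1, the mean level of HNF4A went from 49.4 to 31.9 CPM and that of LGR5 from 0.849 to 0.209, while that of KRT19 went from 72.3 to 223 and that of VIL1 from 4.08 to 20.7. The keratins KRT8 and KRT18 were at 3455 and 1418 CPM in siNC and 3534 and 1460 CPM in siZEB1. The summed level of the 11 epithelial markers listed ranged from 5105 to 5729 CPM in siNC and from 5246 to 5900 CPM in siZEB1, most of it KRT8 and KRT18. CDH17, a cadherin of intestinal epithelium, had 5 reads at most in any culture.

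The corepressors and chromatin partners of the ZEB and SNAI factors had a median log2 fold change of 0.0053 over 31 genes tested, 10 called higher (32.3%, against 19% of all genes tested) and 7 lower (22.6%, against 21.2%). SIRT1, a deacetylase, fell from 68.2 ± 6.49 to 41.8 ± 2.20 CPM (log2 fold change -0.71). EP300 and KAT2B, acetyltransferases that are known as coactivators, had log2 fold changes of -0.59 (SE 0.079) and -0.56 (SE 0.14). LATS2, a kinase of the Hippo pathway that phosphorylates SNAI1, rose from 37.8 ± 4.01 to 72.1 ± 5.65 CPM (log2 fold change 0.93). The list holds the 13 subunits of the NuRD deacetylase complex, set apart after values were seen, and 6 of these were called higher and 1 lower, beside the same 19% and 21.2%, between -0.21 for CHD3 and 0.55 for HDAC1. Of the enzymes that control the stability of the factors, 5 of 23 tested (21.7%) were called higher and 4 (17.4%) lower, with a median of 0.033, close to the 19% and 21.2% of all genes tested. LATS2 is on this list too and is counted in both. BTRC, the ubiquitin ligase subunit that recognises phosphorylated SNAI1, fell from 59.5 ± 3.41 to 34.3 ± 1.49 CPM, and USP27X, a deubiquitinase of SNAI1, fell from 4.44 ± 0.608 to 2.38 ± 0.0217 CPM. SIAH2, a ubiquitin ligase, rose from 26.1 ± 1.17 to 43.4 ± 2.33 CPM. Each gene named here from these 2 lists passed edgeR's test, with the largest adjusted p = 0.0128 for CHD3, whereas protein levels of the factors were not measured in these libraries.

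**Figure D4:**
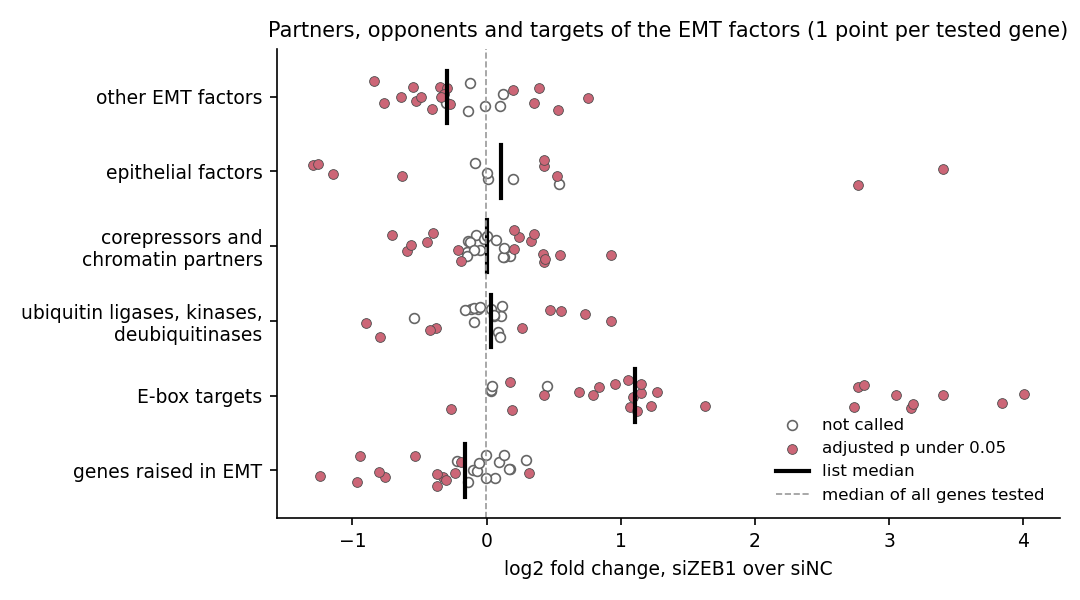
Log2 fold change of siZEB1 over siNC (horizontal axis) for each tested gene of 6 lists (rows), filled where the adjusted p is under 0.05, with the list median as a black bar and the median of all genes tested as a dashed line. The E-box targets lie to the right with a median of 1.11, and the other EMT factors and the genes raised in EMT lie to the left, at -0.29 and -0.16.

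Most tested targets that ZEB and SNAI proteins are known to repress were higher in siZEB1, where ZEB1 was lower and SNAI1 RNA was not called. The part of each factor in this was not tested. Of 36 listed, 30 were tested, 25 were called higher (83.3%, against 19% of all genes tested) and 1 lower (3.33%, against 21.2%), and the median log2 fold change was 1.11. ESRP1, MARVELD3 and MAL2 had fewer than 10 reads in each siNC culture, and OVOL2 had 9 or 10. These genes entered the test through their siZEB1 reads. With at least 10 counts in every culture, where fewer genes were tested, 20 were called higher. The list was chosen with earlier results of these data known. CDH1, E-cadherin, had 39, 54 and 26 reads in siNC and 594, 540 and 606 in siZEB1, a log2 fold change of 4.01 (SE 0.14, edgeR adjusted p = 2.45e-12). CDH3, P-cadherin, rose from 2.08 ± 0.194 to 29.9 ± 3.08 CPM, and SPINT1, an inhibitor of membrane serine proteases, from 2.96 ± 0.413 to 26.8 ± 3.68 CPM. Of the genes that EMT raises, 26 were tested, 12 were called lower (46.2%, against 21.2%) and 1 higher (3.85%, against 19%), and the median was -0.16. TGFBI and FN1, proteins of the extracellular matrix, fell by 1.24 and 0.94 on the log2 scale, CDH11 by 0.97 and COL6A1 by 0.80. VIM, which encodes vimentin, was at 277 ± 20.3 CPM in siNC and 258 ± 17.1 CPM in siZEB1 (log2 fold change -0.10, edgeR adjusted p = 0.255), and its groups overlapped. Markers of fibroblasts summed to between 13.4 and 15.3 CPM in each of the 6 cultures, with COL1A1 and PDGFRB holding most of it and THY1 and LUM near 0.

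The share of genes called higher was larger among genes with more E-boxes of the kind that ZEB1 binds. RefSeq windows were matched by symbol to 10429 of the 14996 genes tested, and a gene was given its window with the most CACCTG or CAGGTG. Of genes with no motif (7897) 19.7% were called higher, of those with 1 motif (2151) 21.5%, with 2 (334) 32.6% and with 3 or more (47) 36.2%. The share called lower went from 23.3% and 22.9% to 18.0% and 17.0%. Genes more than 2-fold higher made up 1.58%, 3.35%, 6.59% and 12.8% of these classes. Genes more than 2-fold lower made up 3.05%, 2.74%, 2.10% and 4.26%. In the class with 3 or more motifs these shares stand for 6 genes higher and 2 lower. The median GC content of the windows, from 65.3% to 68.0%, and the mean number of windows per gene, from 1.33 to 2.47, rose with the number of motifs, and their part in the pattern was not tested. Among genes with 1 window, called higher were 19.7% of 6067, 23.6% of 1185, 30.1% of 173 and 45.0% of 20. Of the E-box target list, 12 of the 16 tested genes with a window held a motif (75.0%, against 24.3% of the 10429 tested genes with a window), a list that was chosen for its E-boxes. CDH1, SNAI1, SNAI2, SNAI3 and FOXC2 were without a match in the table.

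**Figure D5:**
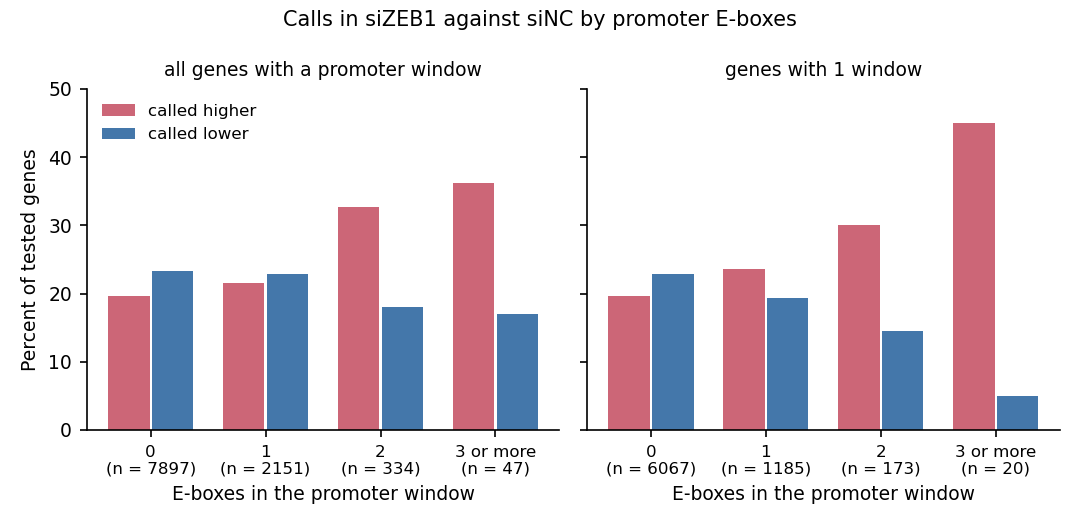
Percent of tested genes called higher (red) or lower (blue) in siZEB1 (vertical axis) by the number of CACCTG or CAGGTG motifs in the promoter window (horizontal axis, with the number of genes), for all genes with a window (left) and for genes with 1 window (right). The share called higher goes from 19.7% with no motif to 36.2% with 3 or more on the left and to 45.0% on the right.

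PATJ and CRB3, genes of the Crumbs polarity complex that ZEB1 is known to repress, are shown as promoters with many motifs, chosen after their values were seen. The PATJ window lies at chr1:61742230-61742529 and the CRB3 window at chr19:6464021-6464320, on the plus strand, and capitals mark CACCTG or CAGGTG.
PATJ: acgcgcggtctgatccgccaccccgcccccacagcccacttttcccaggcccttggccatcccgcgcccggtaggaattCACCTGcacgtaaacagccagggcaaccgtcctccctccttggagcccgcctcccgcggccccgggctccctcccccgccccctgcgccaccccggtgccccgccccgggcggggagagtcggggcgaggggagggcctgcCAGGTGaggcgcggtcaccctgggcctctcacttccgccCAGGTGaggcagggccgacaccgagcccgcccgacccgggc
CRB3: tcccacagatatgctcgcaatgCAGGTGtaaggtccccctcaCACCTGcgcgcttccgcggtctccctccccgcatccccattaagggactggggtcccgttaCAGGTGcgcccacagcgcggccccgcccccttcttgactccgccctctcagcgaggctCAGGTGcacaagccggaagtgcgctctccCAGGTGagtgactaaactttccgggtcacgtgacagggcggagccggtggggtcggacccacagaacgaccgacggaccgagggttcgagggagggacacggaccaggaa
PATJ, with 3 motifs, had 466, 530 and 443 reads in siNC and 884, 864 and 996 in siZEB1, a log2 fold change of 1.07 (SE 0.080, edgeR adjusted p = 2.04e-08). CRB3, with 5 motifs, a number reached by 0.094% of windows, had 5, 1 and 0 reads in siNC and 2, 2 and 4 in siZEB1 and stayed below the filter. CLDN7, whose window with the most motifs also held 5, had 14, 19 and 7 reads in siNC and 26, 14 and 39 in siZEB1. It was called higher, with a log2 fold change of 1.12 (SE 0.39, edgeR adjusted p = 0.0317), although its groups overlapped. The same motif was thus found in front of genes called higher and in front of a gene at or near 0 in both groups.

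Genes around ZEB1 on chromosome 10 were examined because ZEB1 and ZEB1-AS1 moved in opposite directions. Within 1 Mb of the ZEB1 ends 26 genes were listed and 9 tested, of which 4 were called lower and 1 higher, ZEB1 and ZEB1-AS1 included. Of the 7 tested besides ZEB1 and ZEB1-AS1, only ARHGAP12, KIF5B and MAP3K8 were called, each lower. Over all genes tested, 40.2% were called in either direction and 21.2% were called lower. ARHGAP12, a GTPase-activating protein, fell from 78.7 ± 8.84 to 58.1 ± 4.45 CPM (log2 fold change -0.44, SE 0.085, edgeR adjusted p = 0.000499). KIF5B, a kinesin heavy chain, had a log2 fold change of -0.36 (SE 0.086, edgeR adjusted p = 0.00268), although the groups overlapped after library-size scaling, with 4718 reads in the lowest siNC culture and 4691 in the highest siZEB1 culture. MAP3K8, a kinase, had a log2 fold change of -0.25 (SE 0.090, edgeR adjusted p = 0.0358), and its call was lost in 5 of 12 alternatives, with adjusted p-values over these alternatives from 0.0295 to 0.131. Without siNC_1, siZEB1_2 or siZEB1_3 its edgeR adjusted p was 0.127, 0.0782 and 0.131. MTPAP at -0.18 (adjusted p = 0.0571), ZNF438 at 0.44 (0.0703), PPIAP31 at 0.30 (0.303) and EPC1 at 0.047 (0.755) were not called by edgeR, and ZNF438 passed without siNC_3 or siZEB1_3, at 0.61 and 0.54. None of the neighbours came near the change of ZEB1.

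The genes whose pattern was most like that of ZEB1 included GFPT1, FAM111B, TMEM131 and HNRNPF, by Pearson's r of log2 CPM over the 6 cultures, from 0.9994 to 0.9998. Each of these 4 was lower in siZEB1, with log2 fold changes of -1.44, -1.33, -1.02 and -1.04. The 6 points fall into the 2 groups, so any gene with a clean difference between them has a high r, and 240 genes had an r above 0.99. For ZEB1-AS1 the r with ZEB1 was -0.89, for SNAI3 -0.71, for SNAI1 -0.19 and for SNAI2 0.42. These values describe the cultures and were not tested.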

How the data were processed

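RNA from 3 siNC and 3 siZEB1 cultures of SW480 was sequenced by the submitters. The authors deposited 1 table of raw counts per culture, whole numbers of reads per Ensembl gene, not normalized. The submitters' processing notes name hg38, Trimmomatic, HISAT2, SAMtools and featureCounts, without versions. The annotation, the strand setting and the handling of shared reads are not given in the sources used here. Each listed gene has at least 1 read in at least 1 culture.

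The 6 tables were joined by gene identifier and members taken by gene name. Coordinates and exonic lengths are those of GENCODE 29 (31059 of 32029 identifiers matched). Genes were kept by edgeR's filterByExpr, scaled by TMM and tested two-sided with the quasi-likelihood test in edgeR 4.0.16 (R 4.3.3, limma 3.58.1), with p-values adjusted by Benjamini-Hochberg over 14996 genes and a threshold of 0.05. CPM uses the same size factors, and RPKM divides CPM by exonic length. Members below the filter were given as reads, with ratios of summed CPM and 95% counting intervals. DESeq2 1.42.0 and other settings served as alternatives. The fit was tested on simulated data. Python 3.11.15 with scipy 1.17.1 drew the permutation test and intervals.

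Counts per culture were between 19040636 and 22357633, where a count of 0 allows up to 0.134 to 0.158 CPM (3 counts), for counting error only. Between replicates the chi-square over degrees of freedom was 2.18 to 8.58, above sampling noise, so none were counted as copies. The labels do not say how cultures were separated, so p-values measure the spread between these cultures. No batch is given in the labels.

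The members and lists were chosen with earlier results of these data known. Named genes are the members and their antisense or pseudogene rows, up to 4 called genes per list with the largest change, tested genes within 1 Mb of ZEB1, the 5 most like ZEB1, CDH1 and VIM. A few genes that meet the rule are not reported here. Other names were chosen after values were seen. Endothelial and leukocyte marker lists summed to between 1.75 and 2.99 and between 1.08 and 1.98 CPM. MIR205HG had between 2 and 14 reads per culture and MIR34AHG at most 4.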

Additional observations from a re-analysis of the deposited data

How the results depend on the processing

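The fall of ZEB1 kept its call in 12 of 12 alternatives, with log2 fold changes from -2.95 to -2.79, and the rise of ZEB1-AS1 in 12 of 12, from 0.61 to 0.84. SNAI1 stayed uncalled in 12 of 12, and its sign turned without siNC_1 (-0.036) and without siZEB1_1 (-0.0029) within a range of -0.036 to 0.063 when 1 culture was left out. That of EPC1 turned without siNC_3 (-0.022) and siZEB1_3 (-0.0084), within -0.022 to 0.14. The cause was not tested.

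The number of members called higher was 1 and became 2 with no filter on low counts and with a threshold of 1.5-fold at an unadjusted p under 0.05, with SNAI3 the addition. It became 0 with 1.5-fold at an unadjusted p under 0.001, and ranged from 1 to 2 when 1 culture was left out. With the thresholds on fold change, the genes called higher numbered 1081 (p under 0.05) and 678 (p under 0.001) and those called lower 1402 and 1004, by construction fewer. Of the epithelial factors, 3 were called higher with at least 10 counts in every culture, where fewer genes were tested. Of the genes raised in EMT, the number called higher was 2 with DESeq2, 3 with median-of-ratios size factors, 2 with no filter, 2 with at least 10 counts in every culture, and 1 to 2 when 1 culture was left out. The 1 E-box target called lower ranged from 0 to 1, being lost without siNC_2 or siZEB1_2.

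With the replicate number as a block, 2289 genes were called higher and 2679 lower against 2849 and 3186, ZEB1 was at -2.85 and ZEB1-AS1 at 0.71, and MAP3K8 lost its call (edgeR adjusted p = 0.0795). The list counts fell from 10 to 8 higher and 7 to 5 lower for the corepressors, from 25 to 22 higher for the E-box targets, from 5 to 4 higher for the other EMT factors and from 12 to 11 lower for the genes raised in EMT. The block fit covered all genes tested, but its single values for HDAC1, CHD3, PATJ and CLDN7 are not reported here. Cultures with the same number did not deviate together (r = -0.11, -0.15 and -0.34), so no pairing by number was seen. Deviations from the mean of 3 cultures are tied to each other, so these values cannot exclude a pairing. The scaling alternatives moved the median of all genes by less than 0.1 on the log2 scale. Depth limits ZEB2, TCF4, PRRX1 and FOXC2, and the wide intervals of SNAI2 and SNAI3.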
